A study of Homo sapiens with 8 samples.

Results

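The genes that write, copy and remove cytosine methylation were followed through 2 RNA-seq experiments on H9, an established line of human embryonic stem cells (hESCs). The set was chosen by gene symbol, as all rows named DNMT1, DNMT3A, DNMT3B, DNMT3L, UHRF1, TET1, TET2 or TET3. It holds 8 of the 20344 genes listed in either table: 7 were analysed in the table on crowding and 8 in the table on ETV4 knockdown (KD), since DNMT3L was analysed in the second table only. All of these passed the filter on low counts.

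The first experiment compared 2 libraries of H9 hESCs at low density with 2 libraries of crowded hESCs at high density, in which the cells could attach only to Matrigel islands. The second compared 2 libraries with a control hairpin (shControl) with 2 libraries with a hairpin against ETV4 (shETV4), an ETS-family transcription factor that the study examines downstream of crowding. Neither density group carried a hairpin, no library was shared between the experiments, and all cells were grown on Matrigel in mTeSR1 or TeSR-E8 medium. Passage number and the hairpin's sequence were not analysed here, and all 8 libraries come from this 1 cell line.

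DNA methyltransferases add a methyl group to cytosine, mostly where it precedes guanine (CpG). DNMT1 copies the pattern onto the new strand after replication, and UHRF1 brings it to hemimethylated CpGs. DNMT3A and DNMT3B set new patterns, and DNMT3L is a catalytically inactive relative that stimulates both in germ cells and early embryos. TET1, TET2 and TET3 oxidize methylcytosine, a first step towards its removal. Primed hESCs are known for high DNMT3B, with TET1 as their main TET enzyme.

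The genes lie on 6 chromosomes (GRCh37, GENCODE). DNMT3B spans chr20:31350191-31397165 on the plus strand and overlaps no other annotated gene. DNMT3A lies at chr2:25450724-25565459 on the minus strand with MIR1301 inside it, and DNMT3L at chr21:45666222-45682099 on the minus strand, opposite DNMT3L-AS1. DNMT1 lies at chr19:10244018-10341962 on the minus strand and overlaps S1PR2 on the same strand. UHRF1 lies on the same chromosome at chr19:4903092-4962165 on the plus strand. TET1 lies at chr10:70320094-70454244, TET2 at chr4:106067032-106200973 and TET3 at chr2:74212037-74335303, all on the plus strand.

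Read counts on genes totalled 50359703 to 62410168 per library. Replicate libraries of every group differed by more than sampling noise, with a chi-square per gene of 5.78 to 23.0, and were counted separately, although it is not stated whether they came from separate cultures, so that p-values measure the spread between these libraries only. ETV4 itself had 90.8 and 95.1 FPKM (fragments on a gene scaled to its transcript length and to the mapped reads of the library) with shControl and 45.6 and 40.9 FPKM with shETV4, a log2 fold change of -1.15 ± 0.07 (SE, n = 2 per group; adjusted p = 1.60e-04, edgeR). With crowding ETV4 went from 73.2 and 72.6 FPKM to 54.2 and 53.9 FPKM, a log2 fold change of -0.49 (adjusted p = 9.42e-07). Markers of hESCs were high throughout, with POU5F1 at 1016 to 1405 FPKM and the 10 listed markers summing to 2457 to 2919 FPKM. The summed FPKM of markers of neuroectoderm, mesendoderm, and amnion or trophoblast stayed at or below 6.99 in every library.

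DNMT3B was the most abundant of the set in every library, by a wide margin. In the crowding experiment it stood at 744 to 834 FPKM, which placed it between rank 54 and rank 70 of 19472 genes, and its reads made up 0.369 to 0.408% of all reads counted on genes. DNMT1 and DNMT3A followed at 41.2 to 49.4 FPKM and 35.2 to 44.8 FPKM. UHRF1 and TET1 came next at 12.2 to 17.6 FPKM and 12.3 to 16.2 FPKM, then TET3 at 4.39 to 4.68 FPKM and TET2 at 0.412 to 0.507 FPKM. The order on FPKM, DNMT3B, DNMT1, DNMT3A, UHRF1, TET1, TET3, TET2, was the same by group mean over each table's 4 libraries in both experiments, with DNMT3L last. Each neighbouring pair kept its order in 4 of 4 libraries of a table, except that UHRF1 was above TET1 in 3 of 4 libraries of each table and TET2 above DNMT3L in 3 of 4. At low density UHRF1 stood above TET1 in both libraries, at 17.5 and 17.6 against 12.5 and 12.3 FPKM. With shETV4 it did so too, at 14.0 and 15.4 against 8.76 and 6.55 FPKM. The order of UHRF1 and TET1 was mixed at high density and with shControl. DNMT3B exceeded DNMT1 16.1 to 18.7 times in the crowding experiment and 4.55 to 8.97 times in the ETV4 KD experiment.

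**Figure D1:**
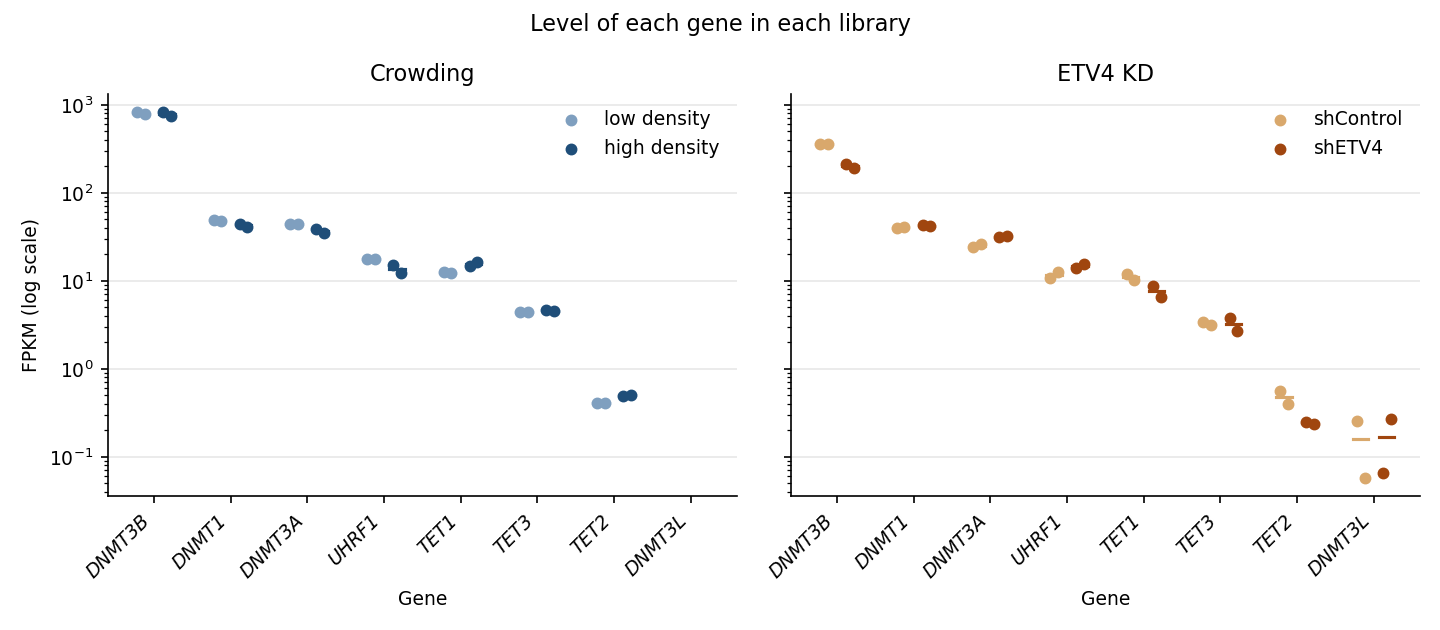
Level of each gene in each library, in FPKM on a log axis, for the crowding experiment (left) and the ETV4 KD experiment (right). Points are libraries and bars the means of 2 libraries. DNMT3B sits at 744 to 834 FPKM on the left at both densities, and on the right the 2 shETV4 libraries, at 192 and 212 FPKM, lie below the 2 shControl libraries at 354 and 359 FPKM.

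The levels of this set differed little between the densities. In edgeR's quasi-likelihood test 0 of 7 members met the study's thresholds for a DEG, which are an absolute log2 fold change over 0.5 together with an adjusted p below 0.05, whereas 16.1% of all 17672 genes tested did, 10.7% higher and 5.47% lower. The count was likewise 0 with DESeq2 and limma, and 4 members had an unadjusted p below 0.05. By the adjusted p alone, 3 of 7 members were lower (DNMT1, DNMT3A and UHRF1) and 1 was higher (TET1), against 20.3% of all genes lower and 19.4% higher. FPKM did not overlap between the densities for 6 of 7 members, against 70.2% of all genes.

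Among the genes that maintain methylation, UHRF1 was the member with the largest decrease in crowded hESCs. It had 17.5 and 17.6 FPKM at low density and 15.1 and 12.2 FPKM at high density, which gave a log2 fold change of -0.43 ± 0.08 (SE, adjusted p = 0.00129). Both crowded libraries lay below both low-density libraries, and the second crowded library was the lower. Without the first high-density library the UHRF1 log2 fold change was -0.59 and passed the threshold on size, and without the second it was -0.27. DNMT1, its partner at the replication fork, had 49.4 and 48.4 FPKM at low density and 44.5 and 41.2 FPKM at high density. The groups did not overlap, and the log2 fold change was -0.25 ± 0.06 (adjusted p = 0.00154), a 1.19-fold decrease.

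The de novo enzymes both had log2 fold changes below 0 with crowding, and whether they differed from each other was not tested. DNMT3A had 44.1 and 44.8 FPKM at low density and 39.1 and 35.2 FPKM at high density, with no overlap and a log2 fold change of -0.23 ± 0.06 (adjusted p = 0.00437). DNMT3B had 827 and 778 FPKM at low density and 834 and 744 FPKM at high density. The groups overlapped, and its log2 fold change was -0.08 with a 95% confidence interval of -0.19 to 0.03 (adjusted p = 0.254). DNMT3B was at -0.17 without the first high-density library (adjusted p = 0.0028), at -0.12 without the second low-density library (adjusted p = 0.0451) and at 0.0075 without the second high-density library (adjusted p = 0.905).

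Of the TET enzymes, TET1 was higher in crowded hESCs. It had 12.5 and 12.3 FPKM at low density and 14.6 and 16.2 FPKM at high density. The groups did not overlap, and the log2 fold change was 0.26 ± 0.06 (SE, adjusted p = 0.00196). TET2 was scarce, with 234 and 279 reads (0.413 and 0.412 FPKM) at low density and 302 and 355 reads (0.492 and 0.507 FPKM) at high density. The FPKM did not overlap, but the log2 fold change of 0.21 had a 95% confidence interval of -0.11 to 0.54 (adjusted p = 0.296). TET3 had 4.46 and 4.39 FPKM at low density and 4.68 and 4.52 FPKM at high density, which did not overlap, while on TMM-scaled counts its log2 fold change was -0.02, with a 95% confidence interval of -0.15 to 0.11 (adjusted p = 0.829). The sign of the TET3 value thus changes with the scaling, and no difference was detectable.

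After ETV4 KD other members differed. DNMT3B, TET1 and TET2 met the thresholds, and all 3 fell. These are 3 of 8 members tested, against 13.0% of all 17879 genes in either direction, 5.88% higher and 7.10% lower. FPKM did not overlap between shControl and shETV4 for 6 of 8 members, against 63.3% of all genes.

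DNMT3B showed the clearest difference. It had 354 and 359 FPKM with shControl and 212 and 192 FPKM with shETV4, or 357 ± 2.95 against 202 ± 14.2 (mean ± SD, n = 2). Both shETV4 libraries lay far below both controls, and the log2 fold change was -0.82 ± 0.07 (SE, adjusted p = 4.64e-04), a 1.77-fold decrease. The share of all reads that fell on DNMT3B went from 0.174 and 0.173% to 0.0989 and 0.0918%, and its rank from 135 and 137 of 19551 genes to 233 and 273. Even so it stayed the most abundant member, 4.55 to 4.96 times DNMT1 in the shETV4 libraries.

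TET1 fell from 12.0 and 10.4 FPKM with shControl to 8.76 and 6.55 FPKM with shETV4. The groups did not overlap, although the libraries within each group differed by more than those of DNMT3B did relative to their mean. The log2 fold change was -0.55 ± 0.13 (SE, adjusted p = 0.0201), a 1.46-fold decrease that lies close to the threshold on size. It was -0.42 without the first shControl library and -0.38 without the second shETV4 library, and neither value passes that threshold.

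TET2 fell from 342 and 228 reads (0.561 and 0.400 FPKM) with shControl to 151 and 137 reads (0.251 and 0.238 FPKM) with shETV4. The shETV4 libraries were close to each other, and the first shControl library was the higher of its pair. The log2 fold change was -0.97 ± 0.22 (SE, adjusted p = 0.0173), a 1.95-fold decrease, but without the first shControl library it was -0.69 with an adjusted p of 0.152. TET2 overlaps TET2-AS1 on the opposite strand, and the sources used here do not say if counting used strand, so its few reads cannot be assigned to TET2 with certainty.

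The members that maintain methylation did not meet the thresholds after ETV4 KD. UHRF1 had 10.7 and 12.6 FPKM with shControl and 14.0 and 15.4 FPKM with shETV4, a log2 fold change of 0.35 with a 95% confidence interval of 0.10 to 0.60 (adjusted p = 0.0516). The groups did not overlap. DNMT1 had 39.5 and 40.5 FPKM with shControl and 42.7 and 42.1 FPKM with shETV4, with a log2 fold change of 0.09 and an interval of -0.07 to 0.24 (adjusted p = 0.392).

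DNMT3A did not meet the thresholds after ETV4 KD. It had 24.0 and 26.3 FPKM with shControl and 31.3 and 32.5 FPKM with shETV4, with no overlap, yet from read counts its log2 fold change was 0.17 ± 0.07 (adjusted p = 0.123). With limma on log2(FPKM + 0.5) it reached 0.34, still below the threshold on size, with an adjusted p of 0.0266. When genes of low FPKM were kept, limma gave the same value with an adjusted p of 0.0551. The counts and the FPKM of DNMT3A moved by different amounts: the read count scaled to library size (CPM) divided by FPKM, a quantity that depends on the transcript length used for a gene, were 5.55 and 5.10 with shControl and 4.58 and 4.60 with shETV4. Relative to other genes this ratio was lower by 0.17 on the log2 scale in shETV4 libraries, a larger shift in absolute size than in 99.1% of 13036 genes. In the crowding experiment the same ratio of DNMT3A went the other way, from 4.71 and 4.81 to 4.93 and 5.13, a relative log2 difference of 0.09, larger in absolute size than in 97.7% of 12752 genes. GENCODE lists 7 protein-coding transcripts of DNMT3A, from 589 to 9501 bases long, which differ in their start, and no values per transcript were analysed here. DNMT3B, with protein-coding transcripts of 2315 to 4336 bases, had a relative log2 difference of 0.00 in both experiments.

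TET3 did not meet the thresholds after ETV4 KD, and whether it differed from TET1 and TET2 was not tested. It had 3.39 and 3.14 FPKM with shControl and 3.74 and 2.66 FPKM with shETV4, which overlapped, with a log2 fold change of -0.05 and an interval of -0.34 to 0.24 (adjusted p = 0.801). Without the first shETV4 library TET3 was at -0.25 (adjusted p = 0.0589) and without the second at 0.12 (adjusted p = 0.375). DNMT3L was close to the limit of detection, with 23 and 5 reads with shControl and 6 and 23 reads with shETV4. Its log2 fold change of 0.09 had an interval of -1.72 to 1.90 (adjusted p = 0.946), so that a change of several-fold in either direction was not detectable at this depth.

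**Figure D2:**
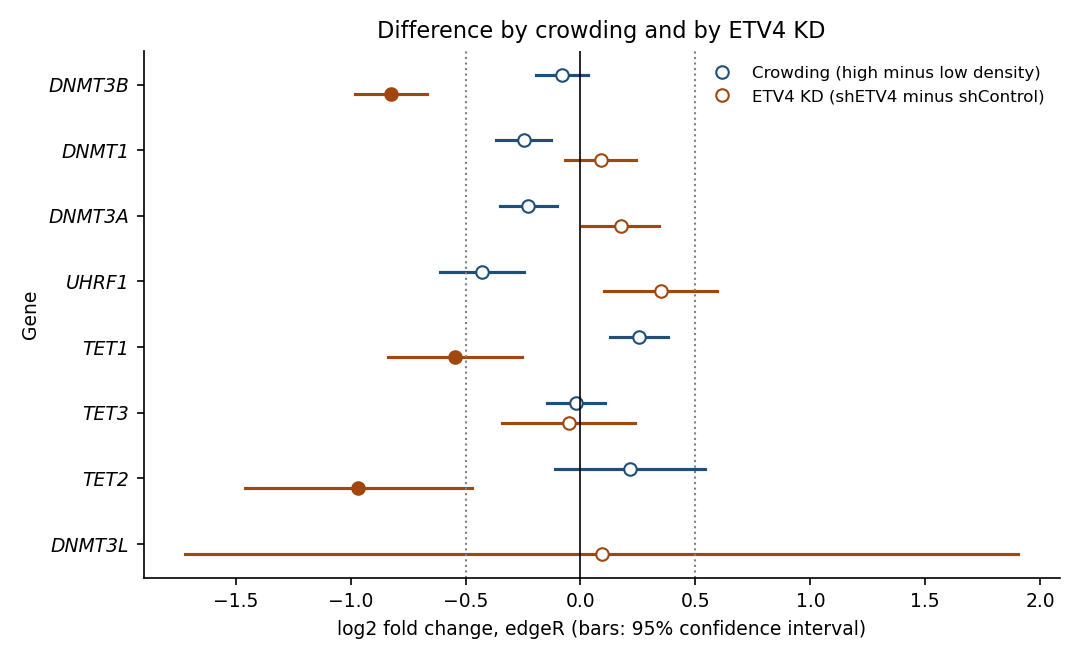
log2 fold change of each member by crowding (blue, high minus low density) and by ETV4 KD (brown, shETV4 minus shControl). Points are edgeR estimates, filled where the gene met both thresholds, bars are 95% confidence intervals and dotted lines mark 0.5 in either direction. DNMT3B, TET1 and TET2 are filled at -0.82, -0.55 and -0.97 for ETV4 KD, and no point is filled for crowding.

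The sequences before the starts of TET1 and TET2, which both fell, are shown because ETV4 binds DNA through an ETS domain, which recognizes the core GGAA. The 250 bases upstream of the start of TET1 lie at chr10:70319844-70320093 (GRCh37, plus strand), and those of the outer start of TET2 at chr4:106066782-106067031 (plus strand). They come from RefSeq windows of GRCh38.p14 that each matched GRCh37 once. Neither overlaps an annotated exon, and capitals mark GGAA or its reverse complement TTCC.
TET1: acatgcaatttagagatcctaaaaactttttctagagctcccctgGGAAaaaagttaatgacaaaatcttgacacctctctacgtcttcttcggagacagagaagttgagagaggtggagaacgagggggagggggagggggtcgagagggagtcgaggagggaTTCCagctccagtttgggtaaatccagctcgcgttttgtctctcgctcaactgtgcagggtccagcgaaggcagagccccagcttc
TET2: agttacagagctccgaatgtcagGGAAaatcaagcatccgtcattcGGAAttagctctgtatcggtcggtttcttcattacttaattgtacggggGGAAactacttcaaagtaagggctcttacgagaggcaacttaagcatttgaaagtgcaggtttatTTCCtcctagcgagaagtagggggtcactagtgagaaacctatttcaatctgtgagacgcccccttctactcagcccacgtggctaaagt

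These windows hold 2 and 4 copies of the core and 9 and 10 CpGs, beside medians of 3 and 11 over all promoter windows. The other RefSeq window of TET2, at its canonical start (chr4:106067783-106068032), holds 0 copies of the core and 34 CpGs and is not printed. RefSeq lists 18 windows for 7 members (DNMT3L had no entry), of which 15 hold the core (83.3%), against 92.7% of 35116 promoter windows of the same 250 bases. The longer ETS letters CCGGAA, searched on both strands, occur in 0 of the 18 windows, against 14.5% of all windows, and CCGGAAGT, which contains CCGGAA, occurs in 3.42% of all windows. These counts describe letters in short windows and no binding was measured here.

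Whether the response of a member differed between the experiments was tested as a difference of the 2 log2 fold changes (crowding minus ETV4 KD) over all 8 libraries. It met both thresholds for 4 of 7 members, against 27.5% of 17790 genes, and the adjusted p alone was below 0.05 for 6 of 7, against 38.5%. For DNMT3B the difference was 0.74 ± 0.09 (SE, adjusted p = 1.18e-04). TET1, with 0.79 ± 0.15 (adjusted p = 0.00146), and TET2, with 1.17 ± 0.26 (adjusted p = 0.0035), were lower after ETV4 KD and not lower after crowding. UHRF1 had the opposite sign, -0.78 ± 0.15 (adjusted p = 0.00185), being lower after crowding. The differences of DNMT1, -0.34 (adjusted p = 0.00841), and DNMT3A, -0.41 (adjusted p = 0.00419), pointed the same way as UHRF1 but were below 0.5 in size. TET3 differed by 0.03, with a 95% confidence interval of -0.29 to 0.34.

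Ratios and shares of FPKM within both enzyme families are given as descriptions, and none of them was tested. FPKM of DNMT3B divided by that of DNMT3A was 18.7 and 17.4 at low density and 21.3 and 21.1 at high density, whereas it was 14.8 and 13.6 with shControl and 6.76 and 5.89 with shETV4. DNMT3B thus made up 93.7 and 93.2% of the FPKM of DNMT3A and DNMT3B together with shControl and 87.1 and 85.5% with shETV4. Groups did not overlap in either experiment, and the share of other gene pairs without overlap was not computed. For the FPKM of single genes that share was 70.2% by crowding and 63.3% by ETV4 KD. Since the DNMT3A level in FPKM and in counts differs as described, the size of these ratios depends on which is used.

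The 3 TET genes together had 17.4 and 17.1 FPKM at low density and 19.8 and 21.2 FPKM at high density, and 16.0 and 13.9 FPKM with shControl and 12.7 and 9.45 FPKM with shETV4. TET1 made up 71.9 and 72.0% of that sum at low density and 73.9 and 76.3% at high density. With shControl its share was 75.2 and 74.5%, and with shETV4 68.7 and 69.3%. The share of TET1 was thus higher in both crowded libraries and lower in both shETV4 libraries than in their controls.

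**Figure D3:**
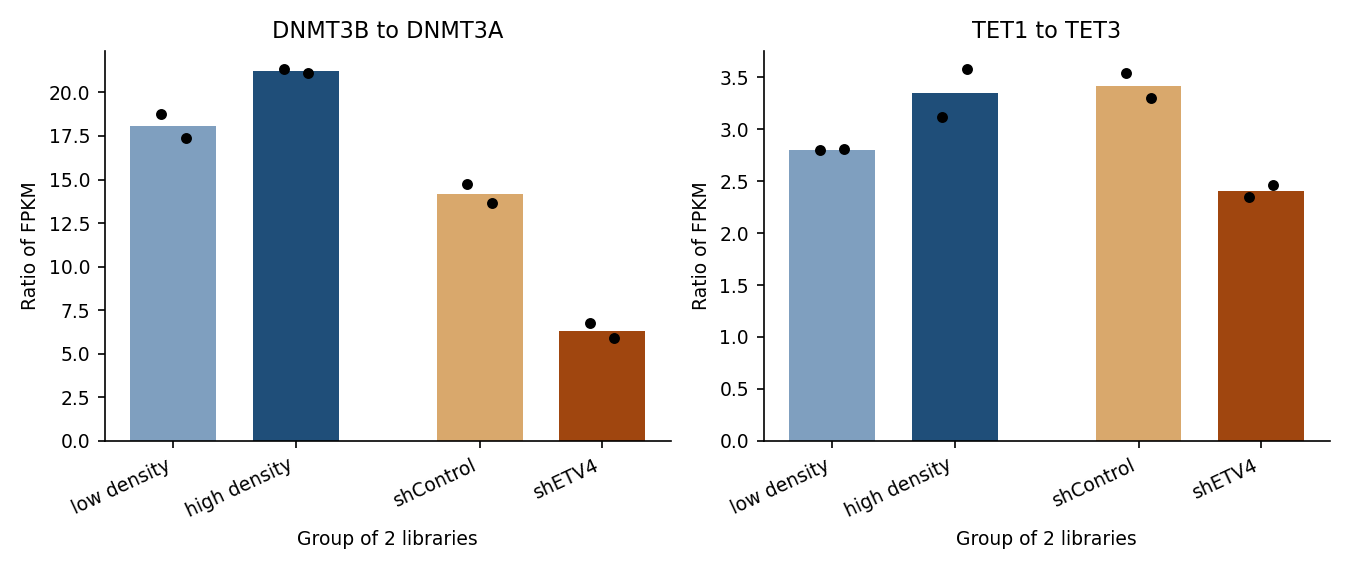
Ratio of FPKM of DNMT3B to DNMT3A (left) and of TET1 to TET3 (right) in each group. Bars are means of 2 libraries and points the libraries. Both ratios are higher at high density than at low density and lower with shETV4 than with shControl, as for DNMT3B to DNMT3A, at 6.76 and 5.89 against 14.8 and 13.6.

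The genes whose pattern lay nearest to each member that fell after ETV4 KD were found by the root mean square difference of log2 CPM, centred within each table, over the 8 libraries and 12475 genes. Nearest to DNMT3B were PLEKHB2 (0.0397), GBAT2 (0.0476) and SLC35B4 (0.0483), against a median of 0.334 over all genes. TET1 lay nearest to MPHOSPH9 (0.0137), LAMA1 (0.0160) and SLC26A2 (0.0263). LAMA1, a laminin chain of basement membranes, had log2 fold changes of 0.23 by crowding and -0.56 by ETV4 KD, beside 0.26 and -0.55 for TET1. For TET2 the nearest were RASD2 (0.0742), RCAN3 (0.0955) and NPTXR (0.0986), at larger distances than for TET1. These distances are descriptions of 8 libraries in 4 groups.

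Beyond the members, 9 lists of genes that work with them or read out their state were followed, 153 genes of which 133 were tested in each experiment. Crowding changed 27 of them (20.3%; 16 higher and 11 lower) and ETV4 KD 23 (17.3%; 10 higher and 13 lower), against 16.1% and 13.0% of all genes. The median log2 fold change of all genes was 0.00 in both experiments.

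Partners of the maintenance and de novo enzymes mostly did not meet the thresholds. Of 12 maintenance partners 1 was called after crowding, CTCFL, a germline paralogue of CTCF at 0.171 to 1.30 FPKM, which was higher (2.09), and 2 after ETV4 KD, CTCFL, which was lower (-1.73), and DMAP1, a protein that binds DNMT1, which rose from 12.2 and 13.5 FPKM to 16.2 and 19.5 FPKM (0.51, adjusted p = 0.0237). CTCFL was named after its values were seen. Of 15 de novo partners, ZFP57, a zinc-finger protein of imprinted loci, was lower with crowding (-0.89) and was likewise named after its values were seen. After ETV4 KD, EZH2, the histone methyltransferase of a Polycomb complex, rose from 14.9 and 18.1 FPKM to 24.7 and 28.0 FPKM (0.68, adjusted p = 0.00674), and its difference between the experiments was -1.08 (adjusted p = 3.70e-04). Among 9 readers of methylated CpG, MBD5 (0.60) and MBD6 (0.74) rose with crowding, and after ETV4 KD all 9 lay between -0.49 and 0.48.

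Genes that serve TET enzymes or act after them moved in both directions. TET enzymes need alpha-ketoglutarate, which IDH1 makes in the cytosol and IDH2 in mitochondria. With crowding, IDH1 fell from 231 and 227 FPKM to 164 and 157 FPKM (-0.57, adjusted p = 2.33e-08), while IDH2 rose from 19.3 and 18.8 FPKM to 28.8 and 31.6 FPKM (0.60, adjusted p = 3.92e-07). The GADD45 genes, stress-response genes linked to demethylation, split: GADD45A (-0.78) and GADD45B (-0.51) fell and GADD45G rose (1.80). After ETV4 KD, GADD45A rose from 8.31 and 8.34 FPKM to 17.5 and 22.5 FPKM (1.27, adjusted p = 0.00152), and its difference between the experiments was -2.06 (adjusted p = 1.29e-05). CXXC4, a regulator of TET2 protein at 0.304 to 0.674 FPKM, was lower after ETV4 KD (-0.87) and is named after its values were seen. Of the enzymes that supply S-adenosylmethionine, the methyl donor, the 11 tested lay between -0.28 and 0.17 with crowding, and SHMT2, of mitochondrial one-carbon metabolism, rose after ETV4 KD from 114 and 116 FPKM to 209 and 222 FPKM (0.92, adjusted p = 4.71e-04).

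Germline genes that promoter methylation is known to keep silent stayed low, with summed FPKM of 2.86 to 4.38 for the 11 listed in each experiment. The sums were 2.96 FPKM at low density and 4.12 to 4.38 FPKM at high density. They were 2.86 to 2.90 FPKM with shControl and 3.38 to 3.84 FPKM with shETV4. DAZL, an RNA-binding protein of germ cells, was higher in both experiments: from 1.70 and 1.59 FPKM to 2.50 and 2.48 FPKM with crowding (0.53, adjusted p = 0.00403) and from 0.705 and 0.595 FPKM to 1.77 and 1.49 FPKM with ETV4 KD (1.30, adjusted p = 0.00393). RBM46 was also higher with crowding (0.95), and after ETV4 KD TEX14 was higher (0.88) and TDRD1 lower (-1.52). These 3, named after their values were seen, had at most 0.613 FPKM. The list's median log2 fold change was 0.34 with crowding (9 tested) and -0.12 after ETV4 KD (10 tested).

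Markers of the naive state of pluripotency, in which DNA is known to carry less methylation, were mostly higher with crowding, and 6 of them were lower after ETV4 KD. With crowding 8 of 12 tested were higher and the other 4 did not meet the thresholds, with a median log2 fold change of 0.61, and after ETV4 KD 6 of 12 were lower and 1 higher, with a median of -0.82. By sign alone, 11 of 12 were above 0 with crowding, and 5 of 12 were above 0 and 7 below after ETV4 KD. FGF4, a growth factor of pluripotent cells, rose from 1.09 and 1.15 FPKM to 5.68 and 6.26 FPKM with crowding (2.36). DPPA2 rose from 4.84 and 5.29 FPKM to 7.11 and 8.33 FPKM with crowding (0.55) and fell from 9.16 and 9.76 FPKM to 4.15 and 3.48 FPKM after ETV4 KD (-1.31), a difference of 1.85 (adjusted p = 1.55e-05). DPPA5 (1.19 and -1.74), SUSD2 (1.16 and -0.99) and TFCP2L1 (0.60 and -1.05) had the same pair of directions. KLF4 rose after ETV4 KD (1.21) and was at 0.07 with crowding, and TFAP2C, which rose with crowding (0.61), was at 0.13 after ETV4 KD. Most of these markers stood below 10 FPKM. ZFP42, the most abundant of them, had log2 fold changes of -0.30 and 0.10.

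Markers of the primed state were mixed. With crowding DUSP6, a phosphatase induced by ERK (-1.67), VIM (-1.07), THY1 (-0.63) and NLGN4X (-0.56) fell. After ETV4 KD OTX2, a transcription factor of primed cells, rose from 2.50 and 2.81 FPKM to 15.9 and 19.3 FPKM (2.73, adjusted p = 1.03e-04), ZIC2 (0.95) and VIM (0.53) rose, and DUSP6 (-0.97) and THY1 (-0.81) fell. The 13 tested had medians of -0.13 and -0.05.

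**Figure D4:**
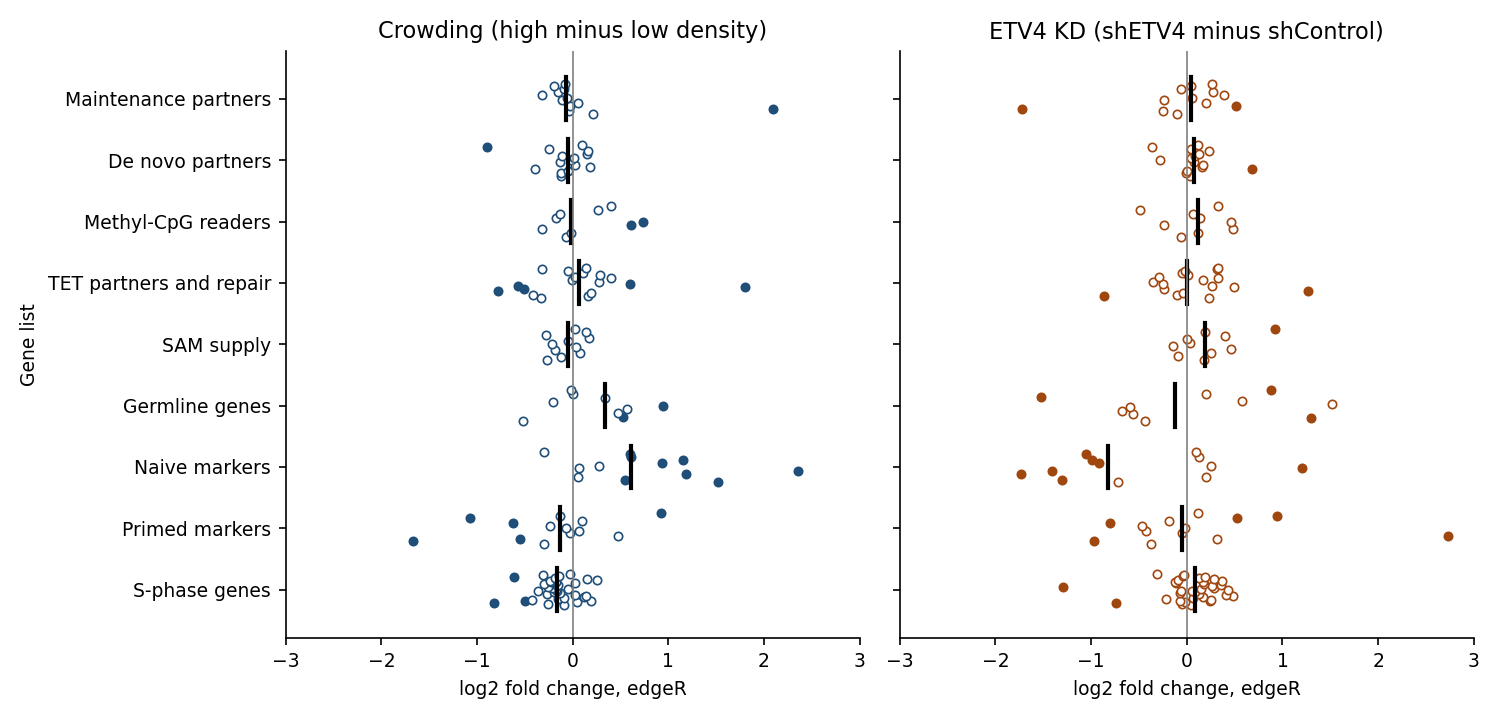
log2 fold changes of the genes tested in 9 lists, by crowding (left) and by ETV4 KD (right). Each point is a gene, filled where it met both thresholds, and black bars are list medians. The naive markers have medians of 0.61 on the left and -0.82 on the right.

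DNMT1 and UHRF1 are known to be made mainly in S phase, so 35 other S-phase genes are given beside them. With crowding 27 of 35 had a log2 fold change below 0, with a median of -0.16, and 3 were called, all lower: CCNE2 (-0.82), RRM2 (-0.62) and CDC6 (-0.50). After ETV4 KD 21 of 35 were above 0, with a median of 0.09, and 2 were called, MCM6 (-1.29) and CCNE2 (-0.74; named after its values were seen), both lower. The values of DNMT1 and UHRF1, -0.25 and -0.43 with crowding and 0.09 and 0.35 after ETV4 KD, had the signs of these medians, and the part of cell-cycle phase in them was not tested.

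Markers of other cell types also moved, at low levels. With crowding 4 of 6 neuroectoderm markers tested were called, SOX1 (2.27) and LHX5 (2.34) higher and LHX2 (-1.55) and SIX6 (-2.15) lower, and the list summed to 1.42 to 1.69 FPKM at low density and 0.998 to 1.34 FPKM at high density. FOXA2 (-2.85), a mesendoderm marker, and POSTN (-1.71), a fibroblast marker, were lower with crowding as well, and these 6 genes were named after their values were seen. With crowding the 10 mesendoderm markers, of which 7 were listed, summed to 4.90 to 5.29 FPKM at low density and 2.72 to 2.80 FPKM at high density, with CER1 lower (-3.53) and TBX6 higher (1.75). In the ETV4 KD experiment, mesendoderm markers (6 of 10 listed) summed to 2.96 to 4.18 FPKM with shControl and 2.38 to 3.11 FPKM with shETV4. These ranges overlapped, and 1 of the 3 tested was called, lower (-1.09). Amnion and trophoblast markers (4 of 10 listed) summed to 6.77 to 6.99 FPKM with shControl and 3.64 to 4.26 FPKM with shETV4, with GABRP lower (-1.33). Fibroblast markers (6 of 8 listed) summed to 36.1 to 37.9 FPKM with shControl and 52.6 to 56.8 FPKM with shETV4, of which COL1A1 rose from 21.5 and 22.4 FPKM to 44.9 and 42.8 FPKM. In the same list COL1A2 had 12.9 and 14.0 FPKM with shControl and 10.4 and 8.63 FPKM with shETV4, COL3A1 had at most 0.0349 FPKM, and DCN and LUM were not among the genes listed. Of 10 hESC markers, TDGF1 was lower (-0.82) and LIN28A higher (0.51) after ETV4 KD. In RNA from whole cultures fewer cells of a type and less RNA per cell cannot be told apart, and the part of other cell types in the values of the members was not tested.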

How the data were processed

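Poly-A RNA was sequenced from H9 hESCs in 8 libraries, 2 in each of 4 groups, with a TruSeq Stranded mRNA kit. Reads were trimmed by the authors with Trimmomatic, aligned to GRCh37 with HISAT2 2.1.0 and assembled on known transcripts with StringTie 2.1.3b, per the labels' processing notes. Each experiment has its own deposited table of raw read counts per gene. The deposited FPKM values were scaled by the authors to transcript length and mapped reads, separately for each table. A table holds only genes with reads in each of its 4 libraries. A further 16 columns of per-sample values, and the authors' own fold changes and p-values, were not used. Groups came from the sample labels, which read small, crowded, Ctrl and ETV4 KD. The names low density, high density, shControl and shETV4, in that order, are those the study gives these groups.

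edgeR 4.0.16 (R 4.3.3) tested the counts within each table (filterByExpr, TMM, robust quasi-likelihood test), over 17672 and 17879 genes, and the difference between experiments over all 8 libraries and 17790 genes, with Benjamini-Hochberg adjustment. The SE is the size of the log2 fold change over the square root of F. The biological coefficient of variation was 6.83% for crowding and 9.93% for ETV4 KD. With 2 libraries against 2, p-values rest on dispersion shared across genes. Besides the 8 members, at most 6 genes were named per list and comparison that met both thresholds without overlap at 1 FPKM or more on average, together with ETV4 and the 3 genes most like each called member. Other genes are marked where named. Not every result is reported here. The members and lists were chosen with earlier results of these data known. Positions are from GENCODE lifted to GRCh37. Alternatives used DESeq2 1.42.0, limma 3.58.1 on log2(FPKM + 0.5), other filters, scalings and pseudocounts, a replicate block, and each library left out. The scripts were tested on simulated data.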

Additional observations from a re-analysis of the deposited data

Results flagged for a closer look

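For 6 members the log2 fold change by crowding differed from that by ETV4 KD in edgeR's test of the difference itself. Crowding minus ETV4 KD was 0.74 for DNMT3B (adjusted p = 1.18e-04), 0.79 for TET1 (adjusted p = 0.00146) and 1.17 for TET2 (adjusted p = 0.0035). It was -0.34 for DNMT1 (adjusted p = 0.00841), -0.41 for DNMT3A (adjusted p = 0.00419) and -0.78 for UHRF1 (adjusted p = 0.00185). The signs divide the set into DNMT3B, TET1 and TET2 on one side and DNMT1, DNMT3A and UHRF1 on the other, and 38.5% of all 17790 genes tested also had an adjusted p below 0.05. The cause of these differences was not tested, and experiment, culture format and hairpin vector differ together between the comparisons.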

How the results depend on the processing

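The fall of DNMT3B after ETV4 KD was called under all 14 alternatives that refit it, with values from -0.87 to -0.78. TET1 was called under 11 of 14 and TET2 under 9 of 11. The count of members called by ETV4 KD, 3 as reported, was 1 with limma on log2(FPKM + 0.5) without a minimum, where TET1 was at -0.53 (adjusted p = 0.102) and TET2 at -0.39 (adjusted p = 0.0849), and 0, DNMT3B included, with an absolute log2 fold change over 1. Leaving out each library in turn gave 1 to 3 members by ETV4 KD, with 1 when the first shControl library was left out, and 0 to 1 by crowding, with UHRF1 called at -0.59 without the first high-density library. The 4 members whose responses differed were 4 under all 13 alternatives. Related genes called ranged from 22 to 29 by crowding and from 19 to 30 by ETV4 KD when libraries were left out. A group left with 1 library was assumed to vary like the others.

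Signs reversed for values near 0. By crowding TET3 was 0.027 on total counts without TMM factors (chosen after seeing the data), 0.051, 0.056 and 0.047 with limma at pseudocounts of 0.5, 0.1 and 1, 0.051 with limma without a minimum, and from -0.046 to 0.0097 with a library left out. DNMT3B by crowding ranged from -0.17 to 0.0075 with a library left out. By ETV4 KD TET3 ranged from -0.25 to 0.12 and DNMT3L from -1.24 to 1.51 with a library left out, and the difference for TET3 from -0.15 to 0.22. Total counts moved the median of all genes to 0.05 for crowding and -0.04 for ETV4 KD.

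Deviations of same-numbered libraries correlated across genes at -0.04 for crowding and 0.09 for ETV4 KD. Whether replicate numbers pair the libraries is not stated, and a correlation over all genes cannot decide it. With a replicate block the SE of TET1 by ETV4 KD was 0.06 in place of 0.13. With the replicate block 0 and 3 members were called, and all genes called by ETV4 KD were 2901 in place of 2321. Its log2 fold changes were -0.82 for DNMT3B, -0.55 for TET1 and -0.95 for TET2. By the adjusted p alone, without the threshold on size, the replicate block added DNMT3B by crowding (-0.08, adjusted p = 0.0314), and DNMT3A (0.17, adjusted p = 0.0132) and UHRF1 (0.35, adjusted p = 1.76e-04) by ETV4 KD. Depth limits TET2 and DNMT3L, with 137 to 355 and 5 to 23 reads per library.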

Other observations

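The low-density and shControl libraries are both H9 hESCs with ETV4 present, yet DNMT3B stood at 827 and 778 FPKM in the former and 354 and 359 FPKM in the latter, in tables that were normalized separately. As a share of the reads counted on genes this was 0.407 and 0.387% against 0.174 and 0.173%. DNMT3A differed in the same direction, at 44.1 and 44.8 FPKM against 24.0 and 26.3 FPKM, and DNMT1 less, at 49.4 and 48.4 FPKM against 39.5 and 40.5 FPKM. TET1 was close, at 12.5 and 12.3 FPKM against 12.0 and 10.4 FPKM. The experiments cannot be told apart from hairpin vector and culture here, and no test of these levels was made across them.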
